A study of Homo sapiens with 3 samples.

Results

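The comparison described here sets KYSE150 cells that overexpressed LOXL2 △e13 against KYSE150 cells that carried the empty vector. KYSE150 is an established human cell line from a squamous cell carcinoma of the esophagus. LOXL2, lysyl oxidase like 2, is a secreted enzyme that cross-links collagen, and △e13 is a splice form of it. Each side is 1 PrimeView array of total RNA, a series of 3 arrays in all, and the remaining array, from cells overexpressing LOXL2 wildtype, is set beside both. No agent other than the transfected vector is named for any group. The labels give neither the promoter that drove LOXL2, nor whether the transfected cells were pools or single clones, nor the number of cultures.

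Each gene was represented by its brightest probe set on average over the 3 arrays, among 18132 genes with a probe set of a single symbol. It was compared where the higher of its △e13 and empty vector signals reached 5.94, which is the median over all probe sets other than controls and is here called the floor. This left 10878 genes. Signals are on the log2 scale, a difference is the △e13 signal minus the empty vector signal unless stated, and a difference of 1 is 2-fold. With 1 array per group there was no replicate and no test, so higher and lower describe these arrays and the number of arrays limits the precision. The wildtype values share the empty vector array with every △e13 difference, so they are given side by side and are no second measurement of it. In bulk RNA, fewer cells with a transcript and less of it per cell cannot be told apart.

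The endoplasmic reticulum (ER) folds secreted proteins such as LOXL2, adds their sugars and forms their disulfide bonds. When unfolded protein gathers there, the sensors IRE1, PERK and ATF6 raise chaperones, degradation factors and the transcription factor CHOP, a program called the unfolded protein response. ATF6 and XBP1 act on promoters through ER stress response elements (ERSE), in which a CCAAT box bound by NF-Y stands near a CCACG sequence. KYSE150 comes from a squamous epithelium, whose basal cells express keratins and desmosomal cadherins and whose upper layers turn on serpins and envelope proteins.

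Of 172 genes on the ER lists 7 were at least 1.5-fold higher in the △e13 array, against 0.359% of all genes compared. The lists were chosen with earlier results of these data known, so this count is no independent support. The promoters of 3 of the 7 carried an ERSE or its variant ERSE-II, and they are printed because these genes are among the 7. Each sequence is the 250 bases before the transcription start, 5′ to 3′ on the strand of the gene, from RefSeq on GRCh38.p14. Capitals mark the conserved ends of the element. HSPA5 holds ERSE, searched as CCAAT, 9 bases, CCACG. HERPUD1 and HYOU1 hold ERSE-II, searched as ATTGG, 1 base, CCACG, which in HYOU1 lies on the opposite strand and therefore reads CGTGG, 1 base, CCAAT at both places.
HSPA5: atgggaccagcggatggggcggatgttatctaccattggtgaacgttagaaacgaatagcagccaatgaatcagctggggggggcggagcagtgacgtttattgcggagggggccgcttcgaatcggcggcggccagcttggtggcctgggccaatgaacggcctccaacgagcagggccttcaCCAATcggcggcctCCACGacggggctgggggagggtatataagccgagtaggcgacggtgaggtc
HERPUD1: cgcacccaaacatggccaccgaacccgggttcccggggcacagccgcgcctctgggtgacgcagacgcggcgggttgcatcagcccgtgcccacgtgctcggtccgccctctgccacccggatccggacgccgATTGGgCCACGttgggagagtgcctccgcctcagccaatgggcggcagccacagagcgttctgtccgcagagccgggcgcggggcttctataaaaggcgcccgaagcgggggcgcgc
HYOU1: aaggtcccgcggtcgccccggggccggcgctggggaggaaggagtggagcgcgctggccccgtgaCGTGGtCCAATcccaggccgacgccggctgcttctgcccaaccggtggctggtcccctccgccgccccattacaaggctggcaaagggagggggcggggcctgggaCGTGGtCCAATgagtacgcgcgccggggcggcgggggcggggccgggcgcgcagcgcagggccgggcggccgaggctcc
The HSPA5 sequence is chr9:125241344-125241593 on the minus strand, the HERPUD1 sequence chr16:56931892-56932141 on the plus strand and the HYOU1 sequence chr11:119057206-119057455 on the minus strand. The element began 66 bases before the start in HSPA5 and 117 bases before it in HERPUD1, and the pair in HYOU1 lay 79 and 185 bases before it. These are matches of letters, not measured binding sites.

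HSPA5 encodes BiP, the main HSP70 chaperone of the ER and the protein that holds the stress sensors inactive. Its signal was 13.31 in the △e13 array, 13.22 in the wildtype array and 12.28 in the empty vector array. Both LOXL2 arrays lay above the control, and the △e13 difference was 1.02, or 2.03-fold. All 6 HSPA5 probe sets above the floor were higher in the △e13 array, by 1.02 to 2.08, and the probe set chosen by the rule gave the smallest of these differences. HERPUD1, a membrane protein of ER-associated degradation, read 10.44, 10.28 and 9.40 in the same order, a difference of 1.03 with 3 of 3 probe sets between 0.91 and 1.03. HYOU1, a large HSP70-like chaperone that exchanges the nucleotide of BiP, read 9.51, 9.40 and 8.81, a difference of 0.70. Its 6 probe sets above the floor were also all higher, although over a wide range of 0.13 to 0.84.

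Over all 35116 promoters of 300 bases in the RefSeq table, from 250 bases before to 50 after the start, ERSE was found in 27 (0.0769%) and ERSE-II in 19 (0.0541%), on either strand. Of the compared genes, 8958 had a promoter in the table, with a median difference of -0.01 and 48.5% higher in the △e13 array. The 16 of them with ERSE had a median of 0.19 and 11 were higher. These genes, named because their promoter holds the element, included CRELD2 (0.45) and CANX (0.37), a pair of ER folding proteins, and HSP90B1 (0.44), the ER member of the HSP90 family. FICD, the enzyme that attaches AMP to BiP, differed by 0.43, the lectin chaperone CALR by 0.25 and the transcription factor XBP1 by 0.19. CALR read 6.65, 6.47 and 6.40 for △e13, wildtype and empty vector, near the floor. Its other probe set above the floor differed by 0.08. SYNPO, an actin-binding protein, was the lowest at -0.39.
HSPA5 element: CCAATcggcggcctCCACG
CRELD2 and ALG12 element: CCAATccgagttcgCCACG
SERP1 and EIF2A element: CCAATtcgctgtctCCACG
The element of HSPA5 is repeated for comparison, and the other two are shown because each lies between a pair of genes that start in opposite directions. The element at chr22:49918554-49918572 lies in the promoters of CRELD2 and of ALG12, a mannosyltransferase of N-glycan assembly, which differed by -0.01 where CRELD2 differed by 0.45. The element at chr3:150546710-150546728 lies in the promoters of SERP1, a translocon-associated protein (0.23), and EIF2A, a translation factor (-0.01). ALG12 lay near the floor, at 6.13, 5.93 and 6.13 for △e13, wildtype and empty vector, where differences are compressed. The contrast between ALG12 and CRELD2 is therefore not well measured. SERP1 and EIF2A lay well above the floor, at 12.13 and 10.90 in the △e13 array. These 2 genes held the same letters and differed in unequal amounts on the chosen probe sets. The 5 SERP1 probe sets above the floor ran from 0.07 to 0.23, and EIF2A had 1. The size of this contrast therefore depends on the probe set.

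The 15 genes with ERSE-II had a median of -0.07, and 6 of them were higher. Besides HERPUD1 and HYOU1, SDF2L1, a cofactor of the BiP cycle, was higher at 0.48, with signals of 9.98, 10.04 and 9.50 for △e13, wildtype and empty vector. The other 12 lay between -0.22 and 0.15. Genes with the shorter letter strings searched alongside had medians near that of all genes: 348 genes with a CRE (TGACGTCA) at -0.00, 100 with the ATF6 and XBP1 element (TGACGTGG) at -0.01, 123 with the sterol element (TCACNCCAC) at -0.00 and 70 with the C/EBP-ATF element (TGATGCAA) at -0.01. The E-box (CACGTG) gave 0.00 over 1154 genes and the antioxidant element (TGACNNNGC) -0.01 over 1736. The share of promoters with each was 1.85%, 0.729%, 1.13%, 0.866%, 7.26% and 13.3% in this order. The CRE and the ATF6 and XBP1 element begin with the same letters, and the latter read on the other strand begins with the CCACG of the ERSE, so a match to one can overlap a match to another.

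**Figure D1:**
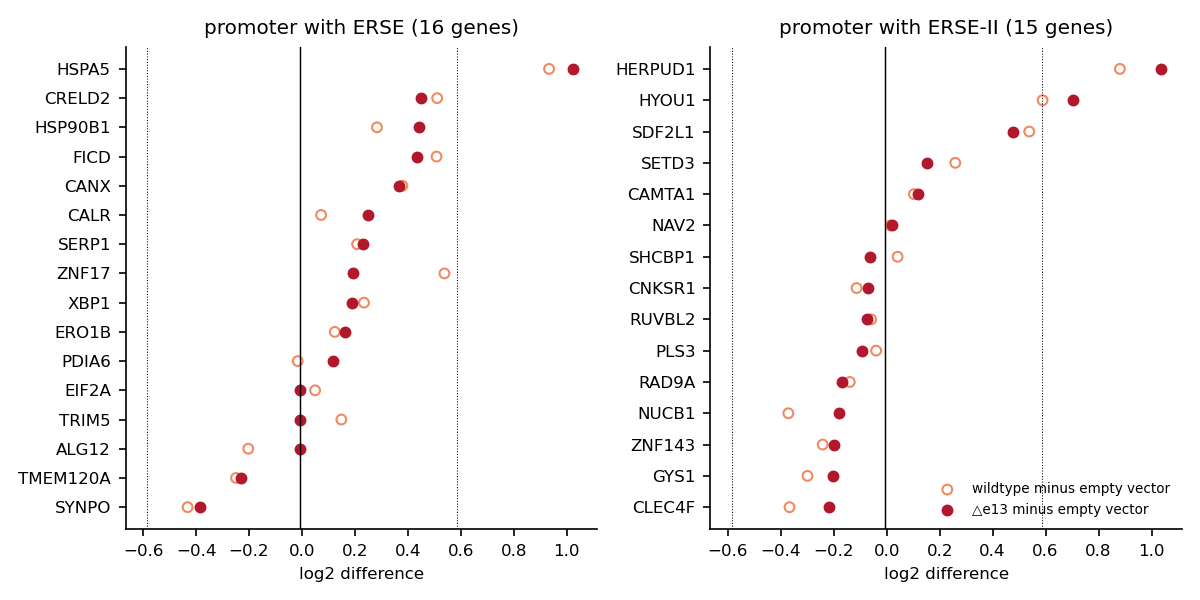
Log2 differences from the empty vector (x axis) of the 16 genes whose promoter holds ERSE and the 15 whose promoter holds ERSE-II (y axis). Filled points are LOXL2 △e13, open points LOXL2 wildtype, the solid line is the median of all genes compared and dotted lines are 1.5-fold; HSPA5, HERPUD1 and HYOU1 are the points beyond 1.5-fold for △e13.

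Across the 10878 genes the differences had a median of -0.01 and a standard deviation of 0.17, and 95% of them lay between -0.34 and 0.35. In the △e13 array 5 genes were at least 2-fold higher (0.046% of those compared) and 1 was at least 2-fold lower (0.00919%). At 1.5-fold, 39 genes were higher (0.359%) and 33 lower (0.303%), and 48.2% of all genes were higher by any amount. Just inside 2-fold was HSPA5, with GEM just outside at 0.99. Just outside on the lower side was TMT1A, a membrane-bound methyltransferase, at -0.97. Of the 39 genes, 10 had an empty vector signal below the floor, and of the 33, 6 had a △e13 signal below it. The standard deviation of the differences ran from 0.24 in 275 genes with a mean signal up to 6 to 0.12 in 320 genes above 12, so equal differences stand further from the bulk of genes at high signal. The only repeat measure was between probe sets of a gene, with a standard deviation of 0.13, which does not cover the spread between cultures. Among 6106 genes with several probe sets above the floor, the probe sets all went 1 way in 3557 (58.3%), and among the 31 such genes at least 1.5-fold apart they did so in 25.

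**Figure D2:**
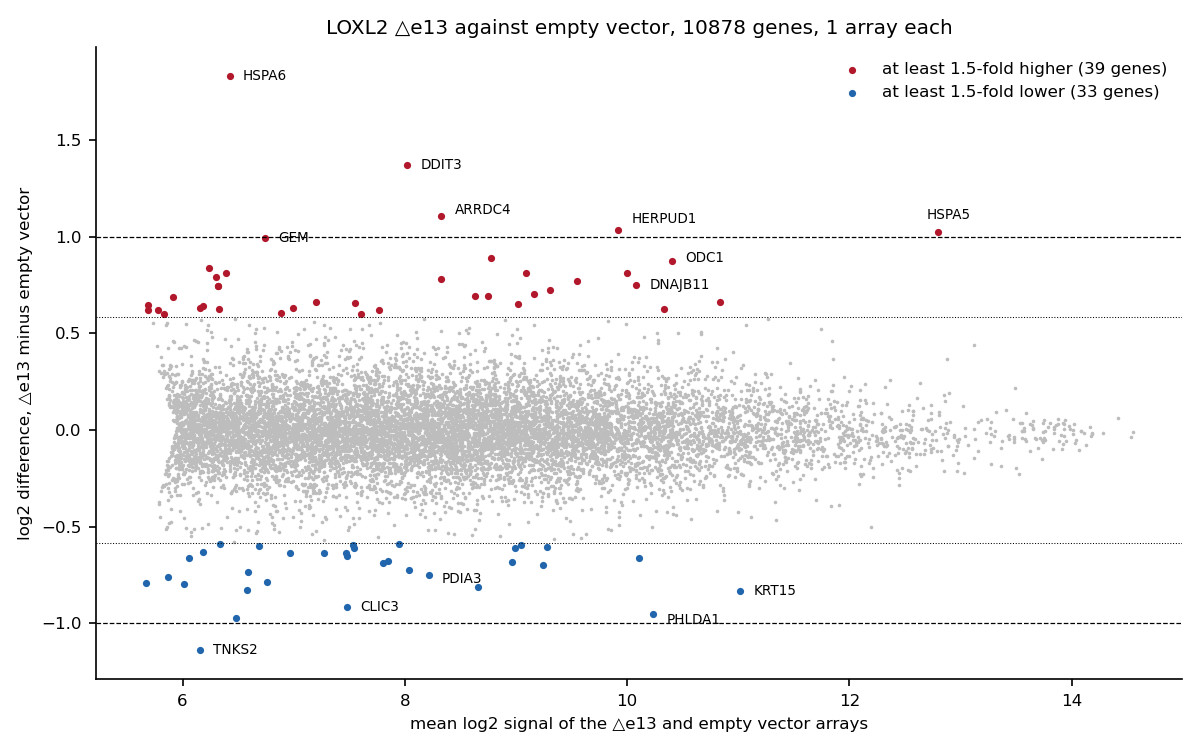
Difference between the LOXL2 △e13 and empty vector arrays (y axis, log2) against their mean signal (x axis, log2) for 10878 genes, 1 point per gene. Dashed lines mark 2-fold and dotted lines 1.5-fold; the 39 genes in red and 33 in blue lie beyond 1.5-fold, and HSPA5 stands alone among genes of high signal.

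The overexpressed gene read differently by probe set. On probe set 11718833_a_at LOXL2 was 10.77 in the △e13 array, 10.22 in the wildtype array and 5.06 in the empty vector array. On 11751288_a_at, the probe set the rule selects, it was 7.41, 14.05 and 7.46, so by the rule LOXL2 itself shows a △e13 difference of -0.05. Probe set 11718834_at read 7.94, 8.07 and 5.38, higher in both LOXL2 arrays, and 11718832_a_at read 8.73, 8.32 and 8.81, higher in neither. The sources used here do not say where these probe sets lie on the transcript, and a probe set outside the expressed sequence checks nothing. Among the related amine oxidases LOXL4 read 6.22, 6.33 and 6.95, a difference of -0.74, while LOXL1 differed by 0.28 and LOX by 0.00.

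The squamous identity of the cells was visible in the arrays. Of 10 basal squamous markers 7 had a probe set of their own and all 7 were above the floor in every array, KRT5 at 11.45, 11.52 and 11.62. Of 7 fibroblast markers 6 were below the floor in every array, among them COL1A1, COL1A2 and DCN, and PDGFRB was above it. Of 5 leukocyte markers on the array 3 were below the floor in every array, PTPRC, CD3D and CD14, while CD68 (8.60, 8.44 and 8.97) and TYROBP (7.40, 7.24 and 7.38) were above it. Of 5 endothelial markers 4 were below it in every array, CDH5, VWF, KDR and TEK, and PECAM1 was above it in the △e13 array alone, at 6.22. Summed on the linear scale, the fibroblast markers gave 181, 180 and 180 for △e13, wildtype and empty vector, the leukocyte markers 596, 535 and 707, and the endothelial markers 216, 209 and 208. The 39 hybridization and labelling spikes differed by a median of -0.06, from -0.31 to 0.23. The 14 bacterial hybridization spikes among them were all lower in the △e13 array, by a median of -0.19, and 9 GC-rich background probe sets were lower by a median of -0.06. The 3′ minus 5′ signal of actin, a gauge of RNA integrity, was 1.38, 1.46 and 1.26, and that of GAPDH was -0.03, 0.00 and -0.01. The part of these in the results was not tested.

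Gene lists are given by their members above the floor. Lists and members were chosen with earlier results of these data known, so their counts and medians are no independent support. Of 1841 listed names 112 had no probe set of their own, and 1425 genes were compared. ER chaperones were the ER group furthest from the other genes. Of 25 chaperones and cochaperones compared 19 were higher in the △e13 array, with a median of 0.22, and 18 in the wildtype array, also with 0.22. At least 1.5-fold higher in the △e13 array were 4 of the 25, against 0.359% of all genes compared. Besides HSPA5 and HYOU1 these were DNAJB11 and DNAJC3, J-domain partners of BiP. DNAJB11 read 10.46, 10.50 and 9.71, a difference of 0.75, and DNAJC3 read 7.90, 8.02 and 7.30, a difference of 0.60. MANF, a secreted stress-protective factor, differed by 0.55. HSP90B1 was higher on 7 of 7 probe sets, by 0.43 to 0.86. Lowest on the list were SERPINH1, the collagen chaperone HSP47, at -0.19 and FKBP10 at -0.13. Genes that act on collagen had no shared direction. Of 22 collagen processing enzymes, SERPINH1 included, 12 were higher with a median of 0.01, PPIB at 0.22 among them.

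The other ER groups lay closer to the median of all genes. Of 13 stress sensors and their transcription factors 8 were higher with a median of 0.04. DDIT3, which encodes CHOP, read 8.70 in the △e13 array, 8.36 in the wildtype array and 7.33 in the control array, and so differed by 1.37, with 2 of 2 probe sets at 1.28 or more. ATF3, a stress-induced repressor, read 10.71, 10.68 and 10.21 and was higher on 4 of 4 probe sets, and CREB3 differed by 0.40. Of the sensors EIF2AK3, the kinase PERK, differed by -0.06, and by -0.25 on its other probe set. ATF4, the factor PERK signalling translates, differed by 0.08. MBTPS1, the protease that cleaves ATF6 and SREBPs, was the lowest at -0.30.

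Among 21 protein disulfide isomerases and thiol oxidases 12 were higher and the median was 0.02. PDIA4, a BiP-associated isomerase, was highest at 0.52, with TMX2 at 0.36 and ERP44, which retains oxidases in the early secretory pathway, at 0.30. PDIA3, the isomerase that works with calnexin and calreticulin, read 7.84, 8.21 and 8.59 on probe set 11743441_s_at and differed by -0.75, but its other probe set 11743440_at read 7.21, 7.26 and 6.98, a difference of 0.24. The direction of PDIA3 therefore depends on the probe set.

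Degradation and translocation genes were mostly higher by small amounts. Of 27 genes of ER-associated degradation 20 were higher with a median of 0.07. After HERPUD1 came AUP1 (0.51) and SELENOS (0.50), members of the retrotranslocation complex, and DERL2 (0.35), a derlin of the same complex. On the other of their 2 probe sets above the floor AUP1 differed by 0.09 and SELENOS by 0.07. Of 24 translocon and signal peptidase genes 17 were higher with a median of 0.08. SEC11C, a catalytic subunit of signal peptidase, read 9.10, 9.14 and 8.40, a difference of 0.69, while its paralog SEC11A differed by -0.05. SRPRB, which anchors the signal recognition particle receptor, differed by 0.43. Of 26 N-glycosylation genes 16 were higher with a median of 0.07, from ALG5 (0.46), which makes the glucose donor, to the trimming enzymes GANAB (-0.25) and MOGS (-0.35). The 37 genes of ER to Golgi transport, of which 19 were higher, had a median of 0.00.

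The targets of ATF4 and CHOP did not share the direction of DDIT3. Of 36 targets 13 were higher and the median was -0.05. SESN2 (0.44) and PPP1R15A (0.40), the phosphatase cofactor that restores translation, were at the upper end with ATF3. At the lower end were PHGDH (-0.41) and PSAT1 (-0.33) of serine synthesis, the amino acid transporter SLC7A5 (-0.39) and the asparagine synthetase ASNS (-0.29). PHGDH read 8.43, 8.33 and 8.85. Of 20 cytosolic aminoacyl-tRNA synthetases, 7 were higher and the median was -0.02.

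**Figure D3:**
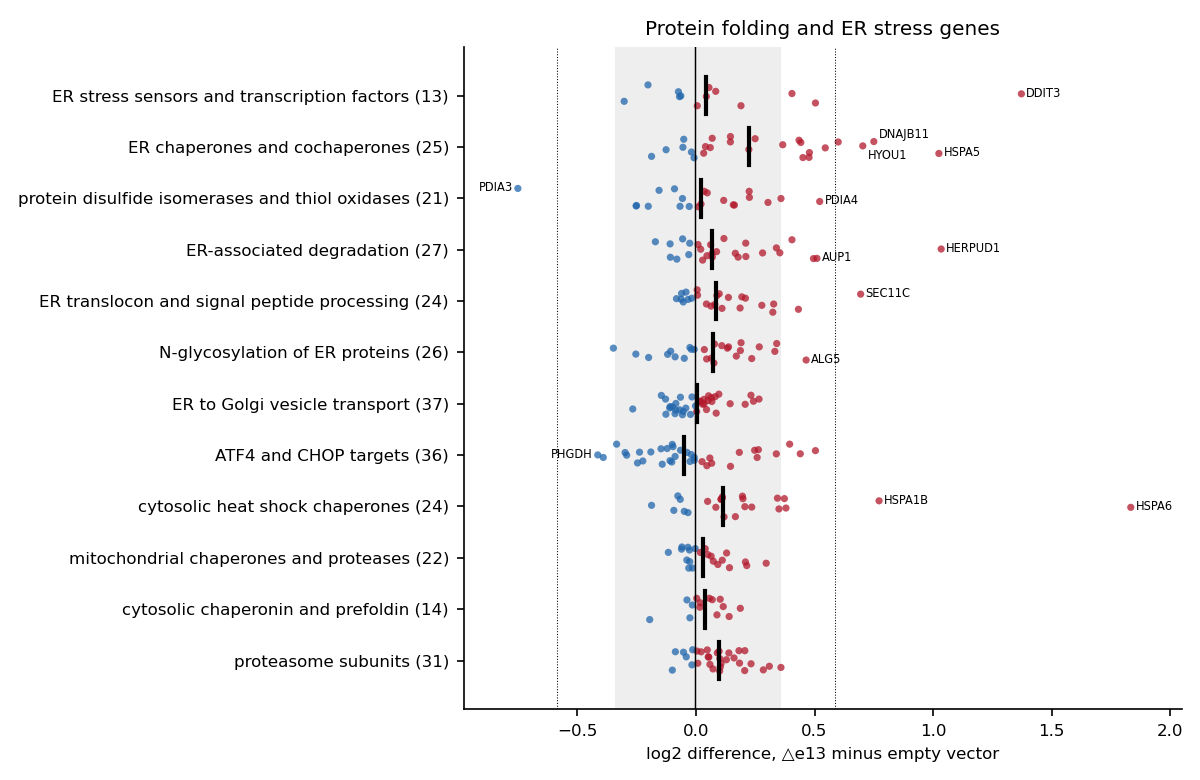
Log2 difference of △e13 from empty vector (x axis) for every compared gene of 12 protein folding and stress lists (y axis, number of genes in brackets), red above 0 and blue below. Thick ticks are list medians, the thin line is the median of all genes, grey covers the middle 95% of all genes and dotted lines are 1.5-fold; the ER chaperone median, 0.22, is the furthest from the line.

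Heat shock genes of the cytosol showed a few large differences. HSPA6, a strictly stress-induced HSP70, read 7.34 in the △e13 array, 6.60 in the wildtype array and 5.51, below the floor, in the control array, and so differed by 1.83. A second probe set shared by HSPA6 and its near-identical copy HSPA7 read 8.16, 7.22 and 4.33. The empty vector signal again lay below the floor, so the size of the difference is not well measured. The copies cannot be told apart on it. HSPA1B, the major inducible HSP70, read 9.93, 9.89 and 9.16, a difference of 0.77, and 4 further probe sets that HSPA1A and HSPA1B share differed by 0.71 to 0.80. Of 24 genes on the list 18 were higher with a median of 0.11, against 17 and 0.28 in the wildtype array. HSPB8 (0.38), the HSP70 partner DNAJB1 (0.37) and the HSP110 gene HSPH1 (0.35) followed, while HSP90AA1 (-0.08) and HSP90AB1 (-0.07) lay below 0. ZFAND2A, an arsenite-inducible proteasome adaptor, read 9.67, 9.74 and 8.94, a difference of 0.72.

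Folding machinery outside the ER and the heat shock system was near the control. Mitochondrial chaperones and proteases had a median of 0.03 over 22 genes, and the cytosolic chaperonin and prefoldin 0.04 over 14. Of 31 proteasome subunits 25 were higher with a median of 0.10, PSMC4 of the regulatory particle at 0.36. The autophagy genes MAP1LC3B (0.55) and SQSTM1 (0.37), the LC3 protein and its cargo receptor, were higher within a list of 33 with a median of 0.03. NRF2 targets were lower in 16 of 24, with a median of -0.11. TKT of the pentose phosphate pathway read 11.95, 11.95 and 12.45 and HMOX1, heme oxygenase, 6.58, 6.68 and 7.03.

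Sterol genes were lower in small and even steps. Of 16 genes of cholesterol synthesis 15 were lower in the △e13 array, the median was -0.23, and none reached 1.5-fold. In the wildtype array 14 of the 16 were lower than in the control, with a median of -0.15. MSMO1, a sterol demethylase subunit, read 11.11, 10.93 and 11.58 and was lower on 3 of 3 probe sets. SQLE, the squalene epoxidase, read 9.70, 9.42 and 10.15 and was lower on 4 of 4. FDPS differed by -0.42, HMGCS1, at the entry of the pathway, by -0.35 and MVD by -0.33. The exception, GGPS1, differed by 0.01. SREBF1 (-0.29) and SREBF2 (-0.28), which encode the sterol-sensing transcription factors, were lower, as was the lysosomal lipase LIPA (-0.36), in a list of 18 sterol uptake, sensing and export genes with a median of -0.11 and 4 higher.

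Of 21 genes for fatty acid synthesis and desaturation 5 were higher, and the median was -0.13. ACSS2, which makes acetyl-CoA from acetate, read 8.58, 8.62 and 9.13, a difference of -0.55, the elongase ELOVL6 differed by -0.46 and the desaturase SCD by -0.39. FADS1, a desaturase of polyunsaturated fatty acids, was on the other side at 0.23. The 21 fatty acid oxidation genes (median -0.02) and the 26 phospholipid and triglyceride genes (0.03) lay near the control.

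Replication-dependent histone genes, whose transcripts end in a stem-loop, had the highest median of the lists compared, 0.29 over 17 genes with 13 higher. Wildtype minus empty vector gave 0.28 over the same genes, with 11 higher. Only 17 of the 53 on the array passed the floor, and 4 of these had 1 of their values below it, so they stand for the brighter members alone. H2AC6 read 8.98, 8.90 and 8.28 and H2BC5 9.44, 9.71 and 8.89. H2BC11 differed by 0.63 and H2BC21 by 0.60, and H2BC4 by 0.79, with 5.91, below the floor, in the control. Many of these genes are near-identical copies, so probe sets may read several of them. The 8 replacement histone genes, made outside S phase, had a median of -0.04. Histone RNA processing genes had 0.08 over 13, with LSM10, a subunit of the U7 particle, at 0.45 and ZNF473 at 0.37.

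Proliferation lists were slightly lower. Of 57 mitosis and G2/M genes 47 were lower with a median of -0.09, the phosphatase CDC25B at -0.41 and cyclin A2, CCNA2, at -0.36. In the wildtype array 46 of the 57 were lower, with a median of -0.15. Of 49 replication and S phase genes 12 were higher with a median of -0.08, against 22 and -0.01 in the wildtype array. CDC25A (0.29) and CDC6 (0.33), which act at the start of S phase, lay at the upper ends. On its other probe set above the floor CDC6 differed by 0.01. Ribosome biogenesis went the other way from the proliferation lists, with 41 of 48 genes higher and a median of 0.13. In the wildtype array 44 of the 48 were higher than in the control, with a median of 0.29. The △e13 signal was above the wildtype signal in 2 of the 48. NOP58, a core protein of box C/D particles, read 11.15, 11.38 and 10.75, and RRP12 10.11, 10.33 and 9.72, so in both the wildtype signal was the highest. PNO1, a factor of small subunit assembly, was higher on 3 of 3 probe sets by 0.57 to 0.74. Ribosomal proteins themselves had a median of -0.02 over 50 genes.

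ODC1, the decarboxylase that opens polyamine synthesis, read 10.84, 11.12 and 9.97, a difference of 0.87. The polyamine list, ODC1 included, had 3 of 16 genes higher and a median of -0.04. The others higher were SRM, the spermidine synthase, at 0.21 and MTAP at 0.04. ARRDC4, an alpha-arrestin that lowers glucose uptake, read 8.88, 9.28 and 7.77, a difference of 1.11 on the chosen probe set and 1.16 on the other. Its relative ARRDC3 differed by 0.42 and ARRDC1 by -0.24. ALDOC, a brain-type aldolase, was lower on 5 of 5 probe sets at 8.98, 8.51 and 9.58, whereas the 21 glycolysis genes had a median of -0.02.

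Of 133 genes on the lists of regulators 3 were at least 1.5-fold higher, GEM, KLF10 and JUN, against 0.359% of all genes compared. The 2 at least 1.5-fold lower were PHLDA1 and EHF, against 0.303% of all genes. GEM, a small GTP-binding protein, read 7.24, 7.63 and 6.25, and KLF10, a TGF-beta-inducible repressor, read 9.22, 9.49 and 8.33. JUN, an AP-1 subunit, read 9.34, 9.29 and 8.69 and was higher on 4 of 4 probe sets, while JUNB differed by -0.38. IFRD1, a transcriptional cofactor, differed by 0.81 and CREB5 by 0.75. CREB5 read 6.69, 6.88 and 5.95, the last of these just above the floor. On the lower side PHLDA1, a feedback inhibitor of receptor signalling, read 9.76, 9.47 and 10.71 and was lower on 4 of 4 probe sets with differences of -0.47 to -0.95. The ERK feedback genes DUSP6 (-0.40) and SPRY1 (-0.32) were lower too, within a list of 19 MAPK feedback regulators with a median of -0.09 and 6 higher. ID1, an inhibitor of basic helix-loop-helix factors, differed by -0.54 and SMAD7, the inhibitory SMAD, by -0.36, while SKIL, another brake on SMAD signalling, was at 0.39. The TGF-beta list as a whole had a median of 0.03 over 26 genes.

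**Figure D4:**
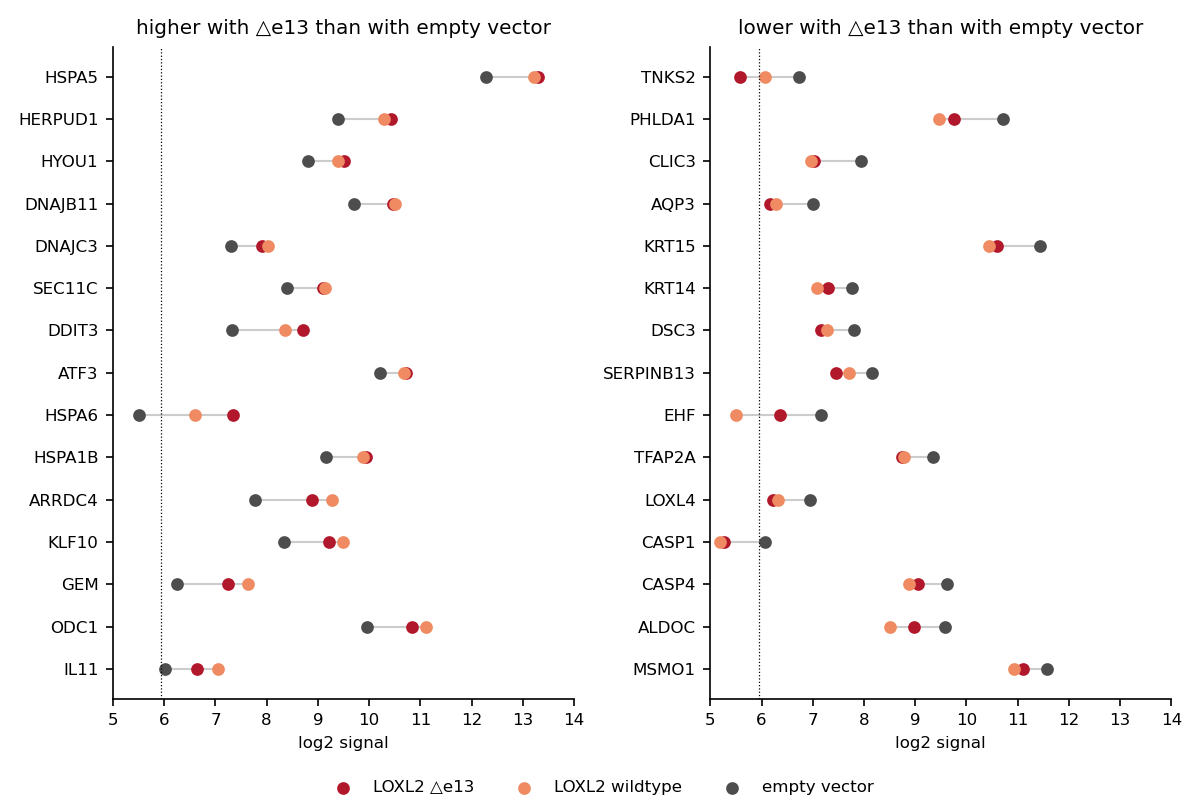
Log2 signal (x axis) of 15 named genes that were higher and 15 that were lower in the LOXL2 △e13 array than in the empty vector array, with 1 point for each of the 3 arrays. The dotted line is the floor of 5.94. Among the higher genes the wildtype point lies beyond the △e13 point in ARRDC4, KLF10, GEM, ODC1, IL11, DNAJB11, DNAJC3 and SEC11C. In HSPA6, DDIT3, HSPA5, HERPUD1, HYOU1, ATF3 and HSPA1B the △e13 point is the highest.

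Squamous genes were among the lowest. KRT15, a keratin of basal progenitor cells, read 10.60 in the △e13 array, 10.43 in the wildtype array and 11.43 in the control array, and so differed by -0.83. The desmosomal cadherin DSC3 read 7.16, 7.28 and 7.81, and TFAP2A, a transcription factor of surface ectoderm, 8.75, 8.78 and 9.34. These 3 were the members at least 1.5-fold lower of 15 basal squamous genes, against 0.303% of all genes compared. Of the 15 genes 4 were higher and the median was -0.17, against 4 and -0.09 in the wildtype array. DSG3 (0.19) and LAMB3 (0.24), a desmosomal cadherin and a laminin chain, lay on the other side.

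Of 18 differentiation genes 3 were higher and the median was -0.06. SERPINB13 differed by -0.69 and the kallikrein KLK10 by -0.58, and SCEL, a precursor of the cornified envelope, read 7.49, 7.60 and 8.04 and was lower on 6 of 6 probe sets. KRT10, the keratin of suprabasal layers, was on the other side at 0.32. EHF, an epithelial ETS factor, read 6.37, 5.49 and 7.15, lowest in the wildtype array, while the 17 ETS factors had a median of -0.04. Of simple epithelial markers the protease inhibitor SLPI differed by -0.60, and LCN2, a siderophore-binding lipocalin, by 0.84, with 5.82, below the floor, in the control.

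Of 170 genes on the matrix, adhesion and channel lists 6 were at least 1.5-fold lower, against 0.303% of all genes, and 0 were 1.5-fold higher. As with the other lists, earlier results of these data were known when the members were chosen. The 6 were CLIC3, AQP3, ITGB8, MMP28, DSC3 and LOXL4, and the median over the 170 was -0.02. CLIC3, a chloride channel family protein, read 7.02, 6.96 and 7.94, and AQP3, the water and glycerol channel of squamous epithelia, 6.17, 6.28 and 6.995. The sodium channel subunit SCNN1A differed by -0.46 and the potassium channel KCNN4 by -0.42, and of 14 channel and gap junction genes 5 were higher, with a median of -0.11. Of 14 integrin subunits 2 were higher with a median of -0.12, ITGB8 at -0.59 and ITGB5 at -0.45. The metalloproteinase MMP28 differed by -0.64 and MMP14, a membrane-bound collagenase, by -0.40. Collagens, the substrates of lysyl oxidases, had a median of 0.02 over 12 genes, with COL4A6 highest at 0.47 on the chosen probe set and 0.00 on its other one above the floor, and COL5A2 at 0.46 with 5.69, below the floor, in the control. The 31 junction genes (-0.01) and the 12 mesenchymal markers (-0.00, 6 higher) had medians near 0, with occludin, OCLN, at 0.43 and SNAI2, a repressor of E-cadherin, at 0.35.

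Inflammatory genes divided by family. Of 9 interleukin 1 and inflammasome genes above the floor, out of 26, 2 were higher and the median was -0.31. Against the same control the wildtype median was -0.38, with 0 higher. CASP4, the caspase that senses lipopolysaccharide, read 9.06, 8.87 and 9.63 and was lower on 6 of 6 probe sets, IL18 differed by -0.44 and IL1B read 10.14, 9.65 and 10.57. CASP1 differed by -0.79 with a △e13 signal of 5.27 below the floor. Of 13 epithelial chemokines and cytokines 11 were higher with a median of 0.23. In the wildtype array 6 of the 13 were higher than in the control, with a median of -0.03. CXCL8, the neutrophil attractant, read 9.16, 8.84 and 8.72, IL6 8.93, 8.81 and 8.47 and IL11, a cytokine of the IL6 family, 6.64, 7.05 and 6.02. Interferon-stimulated genes had a median of 0.09 over 24, with ISG20 (0.48) and ISG15 (0.46) highest. Over 21 genes of MHC class I and antigen processing the median was -0.09, and 5 were higher.

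**Figure D5:**
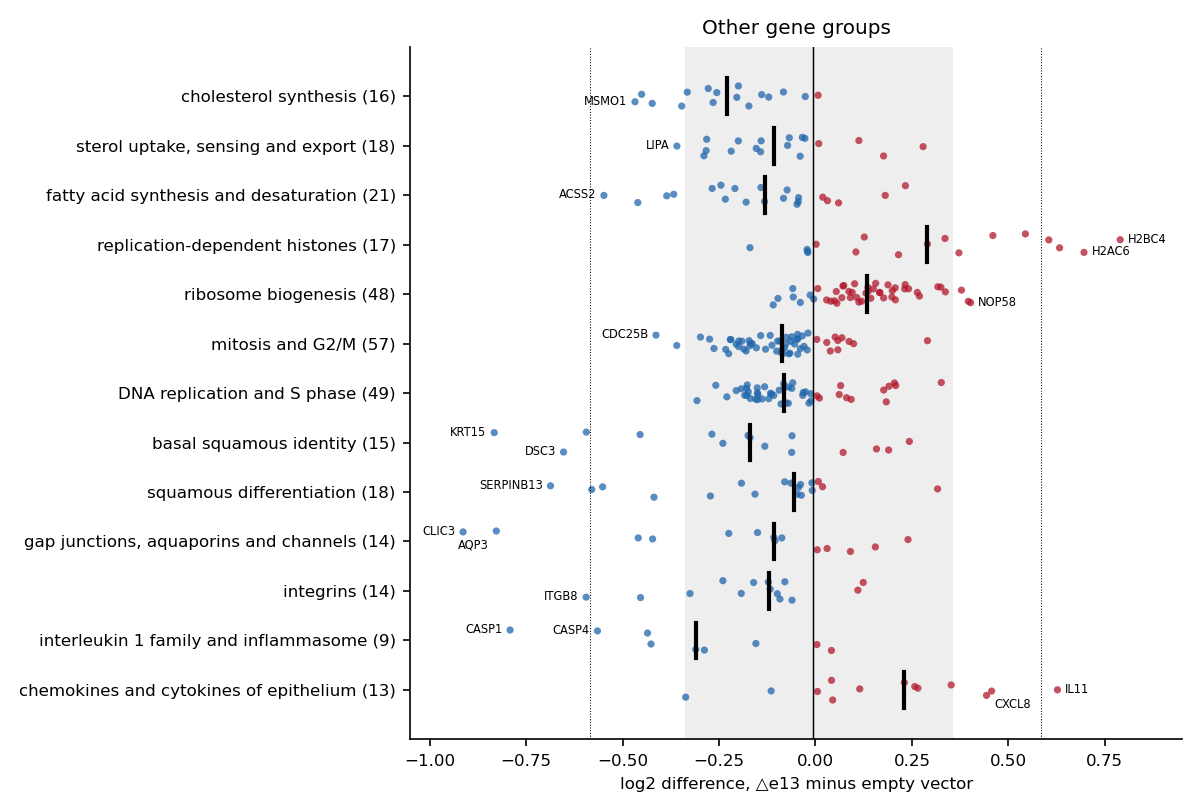
Log2 difference of △e13 from empty vector (x axis) for every compared gene of 13 further lists (y axis, number of genes in brackets), red above 0 and blue below. Thick ticks are list medians, the thin line is the median of all genes, grey covers the middle 95% of all genes and dotted lines are 1.5-fold; 15 of 16 cholesterol synthesis genes lie below 0 and 41 of 48 ribosome biogenesis genes above it.

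Of the 72 genes at least 1.5-fold apart, 37 were on the lists, which held 1425 of the 10878 genes compared. Others included PICALM, a clathrin assembly protein, at 10.40, 10.36 and 9.59. It was higher on 6 of 6 probe sets, by 0.20 to 0.81, the chosen one the largest. SYTL2, a vesicle docking protein, differed by 0.81. LIG4, the ligase of non-homologous end joining, differed by 0.75 on its 1 probe set, at 6.69, 7.15 and 5.95. The empty vector signals of LIG4 and SYTL2 (5.98) lay just above the floor, so these sizes are not well measured. H4C14 and H4C15, read by a shared probe set, differed by 0.65. On the lower side TNKS2, a tankyrase, read 5.59, 6.07 and 6.73, a difference of -1.14 on its 1 probe set with the △e13 signal below the floor. RAB26, a GTPase of secretory granules, read 8.25, 8.01 and 9.06, EPS8L2, an actin regulator, 8.89, 8.72 and 9.59, and SERPINB1, a neutrophil protease inhibitor, 9.78, 9.53 and 10.44. LRG1, a leucine-rich glycoprotein, differed by -0.72 and CYP24A1, the vitamin D hydroxylase, by -0.63, the latter with a △e13 signal below the floor.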

How the data were processed

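Total RNA of KYSE150 cells was measured on PrimeView arrays, 1 per group. The deposited values are log2 signals of 49395 probe sets, which the authors obtained by RMA according to the submitters' processing notes. RMA corrects background, brings the arrays to like distributions and summarises probes, so a shift of most genes in 1 direction would not show. The RMA version and the build of the probe design are not given in the sources used here. That the scale is log2 follows from the values' range.

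After leaving out 102 control probe sets, 44988 had a single symbol in GEO's platform annotation, 1832 had several and 2473 were not listed. Symbols were updated through Entrez IDs in a RefSeq table of GRCh38.p14, which lacked the IDs of 27. A gene was the probe set of highest mean over the 3 arrays, compared where the higher of its △e13 and empty vector signals reached the median of all non-control values (5.94). Of 1841 listed gene names, 112 had no single-symbol probe set, and 1425 listed genes were compared.

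No test was possible with 1 array per group. Fixed sizes of 2-fold and 1.5-fold were counted, and lists were described by counts and medians beside all genes. Members and lists were chosen with earlier results of these data known. Named genes were the 20 highest and 20 lowest whose probe sets went 1 way, list members at least 1.5-fold apart with up to 5 at each end, the 15 at each end with 3 or more probe sets in 1 direction, those with probe sets in opposite directions, the genes at the edge of 2-fold, the LOX family, the cell type markers and genes whose promoter held an ERSE or ERSE-II match. HSPA1A with HSPA1B, HSPA6 with HSPA7 and H4C14 with H4C15, CDK11A with CDK11B and CASP1 with CARD16 share probe sets and were added after their values were seen.

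Alternatives were 3-fold, no floor, a higher floor (7.86, the 75th percentile), the median of each gene's probe sets, centred arrays, quantile normalization, loess with a span of 0.3, and leaving out _x_at and _s_at probe sets. The calculation was tested on simulated data. Python 3.11.15, numpy 2.4.6, pandas 2.3.3, statsmodels 0.14.6 and matplotlib 3.10.9 were used.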

Additional observations from a re-analysis of the deposited data

How the results depend on the processing

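Each side of the comparison was 1 array, so no result could be checked against culture spread, and no paired analysis was possible because every group holds 1 sample. At 3-fold in place of 2-fold, 1 gene was higher and 0 lower. Without a floor, 68 genes were at least 1.5-fold higher and 53 lower. With the floor at the 75th percentile these were 21 and 15, and 0 genes were 2-fold lower. Without _x_at and _s_at probe sets 2 genes were 2-fold lower, and PDIA3 turned to 0.24. With the median over probe sets 32 of the 72 genes at least 1.5-fold apart stayed so in the same direction, and 20 were not compared. Under centring and quantile normalization all 72 did, and under loess 71. RMA had already brought the arrays to like distributions, so centring, quantile normalization and loess could change little and check little. No list with a median of 0.1 or more in size changed sign under any of the alternatives. Low signals hold much background, which compresses differences.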

Other observations

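Probe sets that name several genes or none were left out of the comparison by its rule. Above the floor there were 1994 of them, and at 1.5-fold 14 were higher and 3 lower in the △e13 array. Besides the HSP70 and histone copies, a probe set shared by CDK11B and CDK11A, kinases of splicing and mitosis, read 7.22, 7.35 and 6.47 for △e13, wildtype and empty vector. A probe set shared by CASP1 and its inhibitor relative CARD16 read 5.57, 5.71 and 6.23, on the same side as the CASP1 probe set.

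Some genes short of 1.5-fold on the chosen probe set went 1 way on every probe set above the floor. ST7L, a relative of the ST7 gene, was higher on 6 of 6 by 0.57 to 1.02, with an empty vector signal of 5.88, below the floor, on the chosen one. NUCB2, a calcium-binding protein of the secretory pathway, was higher on 3 of 3 at 0.39 to 0.40, and PTPRR, a MAP kinase phosphatase, on 3 of 3 at 0.43 to 0.48, with signals of 8.47, 8.13 and 8.04. FXYD3, a regulator of the sodium pump, was lower on 4 of 4 probe sets with differences of -0.34 to -0.91, at 10.89, 10.77 and 11.34 on the chosen one, and IL15RA, an interleukin 15 receptor chain, on 3 of 3. Other genes were split: the 12 probe sets of APP, the amyloid precursor, ran from -0.36 to 0.64 and the 5 of CSTF3, a cleavage stimulation factor, from -0.54 to 0.34, so a single probe set does not stand for these genes.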
